A study of Mus musculus with 12 samples.

Results

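The response of splenic CD4 T cells to repeated social defeat stress was examined in mice that lack S100a9. The members are the 1898 genes that the authors listed for this contrast in CD4 cells, 3 stressed knockout mice against 3 unstressed knockout mice. They are 1898 of the 2999 genes listed in any CD4 comparison of the study and of the 3684 listed for CD4 or CD8a cells together. The rule by which the authors kept a gene is not given in the sources used here, and the list was made from these same mice, so the share of changed genes describes the list and not the transcriptome.

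The study took spleens from 12 mice, whose age and sex the labels do not give, 3 in each of 4 groups. Wild-type mice were C57Bl6/J and knockout mice were S100a9-/- on C57Bl6/J, the deletion being carried by the stressed and the unstressed knockout mice alike. Stressed mice went through a 10 day paradigm in which a resident group repeatedly loses to an aggressor, then behavioural testing, and spleens of all mice were taken on day 12. Single-cell libraries were made from whole splenocytes by a 3' protocol, and the deposited value is the average expression of a gene over the CD4 cells of 1 mouse, with no cell number or read count. How cells were assigned to CD4 is not given in the sources used here.

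CD4 T cells recognise peptides shown on MHC class II, and in the resting state they circulate through spleen and lymph nodes as small, long-lived cells held quiescent by factors such as Foxo1, Foxp1, Klf2 and Satb1. After antigen or inflammatory signals they raise ribosome production and oxidative metabolism and can acquire effector genes for cytokines, granzymes and tissue homing. S100a9 encodes a subunit of calprotectin, an abundant protein of neutrophils and monocytes that acts as an alarm signal, and social defeat releases such myeloid cells from bone marrow to spleen.

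The targeted gene and the marker genes were read first. S100a9 (GRCm38, chr3:90692632-90695721, minus strand) is not among the 1898 genes. Its CD4 average was 0.0493, 0.0418 and 0.0437 in the 3 unstressed knockout mice and 0.0294, 0.0230 and 0.0228 in the 3 stressed ones. In wild-type mice it was 0.00449, 0.0167 and 0.0119 without stress and 0.111, 0.0595 and 0.106 with stress. Unstressed knockout mice were therefore above unstressed wild-type mice, and the labels do not say which part of the gene is deleted, so these 3' values are no check of the genotype. Its partner S100a8, the other calprotectin subunit, is listed, with 0.0887, 0.0488 and 0.00853 in unstressed and 0.124, 0.0736 and 0.0711 in stressed knockout mice. The S100a8 groups overlapped and the log2 change of 0.38 ± 0.18 (SE) was not called (limma adjusted p = 0.12). Another gene separates the genotypes in every mouse: mt-Nd3 holds at least 99.5% of the summed level of mt-Nd3 and Gm28438 in wild-type mice and at most 0.807% in knockout mice, a difference the labels do not mention.

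Of the T cell markers, Cd3d, a chain of the T cell receptor complex, was 8.82, 7.68 and 7.25 in unstressed and 9.57, 10.2 and 9.74 in stressed knockout mice, without overlap (log2 change 0.32 ± 0.08, limma adjusted p = 0.0035). Trbc2, the constant segment of the receptor beta chain, was 19.4, 17.7 and 16.7 against 21.01, 20.82 and 19.18. These groups overlapped, and its call (0.18 ± 0.07, limma adjusted p = 0.049) was lost in 10 alternative analyses. Cd4 itself is not among the 1898 genes. Its average was 2.59, 2.69 and 2.72 in unstressed and 1.86, 2.47 and 1.91 in stressed knockout mice, above 0 in all of them. For Cd4 all stressed mice lay below the controls (log2 change -0.35), the opposite direction to Cd3d. Cd8a was between 0.0526 and 0.235 in the 6 knockout mice.

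Stress moved a large share of the listed genes in both directions. With limma on log2(value + 0.1), 750 of 1898 genes (39.5%) were called at an adjusted p under 0.05. Of these, 370 (19.5%) were higher and 380 (20%) lower in stressed knockout mice. The falls were larger: the median log2 change was -0.82 among the lower genes and 0.40 among the higher genes, against 0.13 over all 1898. In 82 genes the change was below -1 and in 2 it was above 1. All 380 lower genes and 350 of the 370 higher genes had the 3 stressed mice wholly outside the range of the 3 controls, while 28.8% of all listed genes lay wholly above and 20.2% wholly below. Without unstressed knockout mouse 3 the count of higher genes was 243. With all genes scaled on those other than ribosomal and mitochondrial the split was 280 higher to 382 lower. With the ribosomal and mitochondrial genes taken out of the table and the rest rescaled it was 166 to 372. That step left 1770 genes. It took out the 76 called ribosomal genes and also pseudogenes with ribosomal protein names, so part of the drop from 370 is removal.

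**Figure D1:**
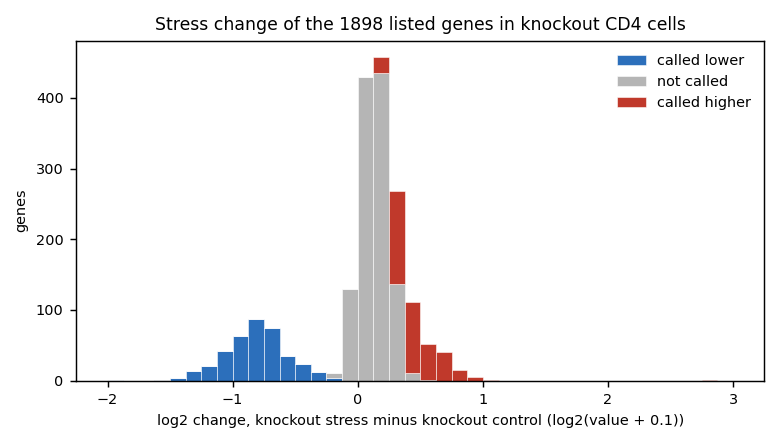
Number of listed genes (y axis) by log2 change between stressed and unstressed knockout mice (x axis), coloured by the call at a limma adjusted p under 0.05. The 380 lower genes form a separate mode near the median of -0.82, while the 370 higher genes are the right shoulder of a mode near 0.13.

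Ribosomal protein genes rose together. Of the 83 listed, 76 were called higher and none lower, with a median log2 change of 0.53. In 3 of the alternative analyses, leaving out unstressed mouse 1 among them, 2 were called lower. Rps6, a small-subunit protein phosphorylated downstream of mTOR, was 6.38, 4.47 and 6.35 in unstressed and 10.6, 9.88 and 8.86 in stressed knockout mice. Rpl18 of the large subunit was 16.2, 16.7 and 16.6 against 28.0, 27.2 and 27.1. Every stressed mouse was above every control for both genes, and the log2 changes were 0.77 ± 0.12 (limma adjusted p = 4.7e-05) and 0.73 ± 0.06 (4.0e-07). Rps7, Rps27, Rps15a, Rpl24, Rpl27 and Rpl30, with log2 changes of 0.74, 0.72, 0.71, 0.84, 0.72 and 0.71, are also among the 10 largest rises of well-measured genes, as is the polyubiquitin gene Ubb at 0.77. Rpl23a and Rpl7l1 had negative changes that were not called. Summed over the 85 ribosomal genes of any CD4 table, the level was 2008, 2082 and 2082 in unstressed and 2948, 2898 and 2795 in stressed knockout mice, which do not overlap. Over all 2999 CD4 genes the sum was between 7367 and 7437 in unstressed and between 8120 and 8152 in stressed knockout mice. Whether the values are shares of a fixed total per mouse is not given in the sources used here.

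Ribosomal protein messages are known for a pyrimidine stretch at their 5' end, through which translation is tied to nutrient signalling. The 30 bases around the annotated start (15 on each side, sense strand, RefSeq GRCm38.p6, first listed start of each gene) of 5 called genes are shown for this feature, with each run of at least 8 C or T bases in capitals. Rps6 lies at chr4:86857353-86857382 (minus strand), Rpl18 at chr7:45718056-45718085 (plus), Rps27 at chr3:90213634-90213663 (minus), Rps15a at chr7:118116133-118116162 (minus) and Rps10 at chr17:27635230-27635259 (minus).
Rps6: aagcggaagtcgggCCTCTTTTTCgtgacg
Rpl18: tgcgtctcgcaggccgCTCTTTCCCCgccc
Rps27: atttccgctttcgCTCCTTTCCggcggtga
Rps15a: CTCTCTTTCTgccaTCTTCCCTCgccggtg
Rps10: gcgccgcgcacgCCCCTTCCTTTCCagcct
Such a run was present at 24 of the 59 ribosomal starts that matched (40.7%), at 12.7% of the 1414 member genes with a start and at 11.9% of the 27025 starts in the table. Among called higher genes outside the ribosomal list the share was 12.8%, and among called lower genes 12.5%. Within the ribosomal list the run did not go with the size of the change: the median log2 change was 0.60 in the 24 genes with a run, 23 of them called higher, and 0.57 in the 35 without, 33 of them called higher. A run of these letters is a description of the window and not a mapped regulatory site.

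**Figure D2:**
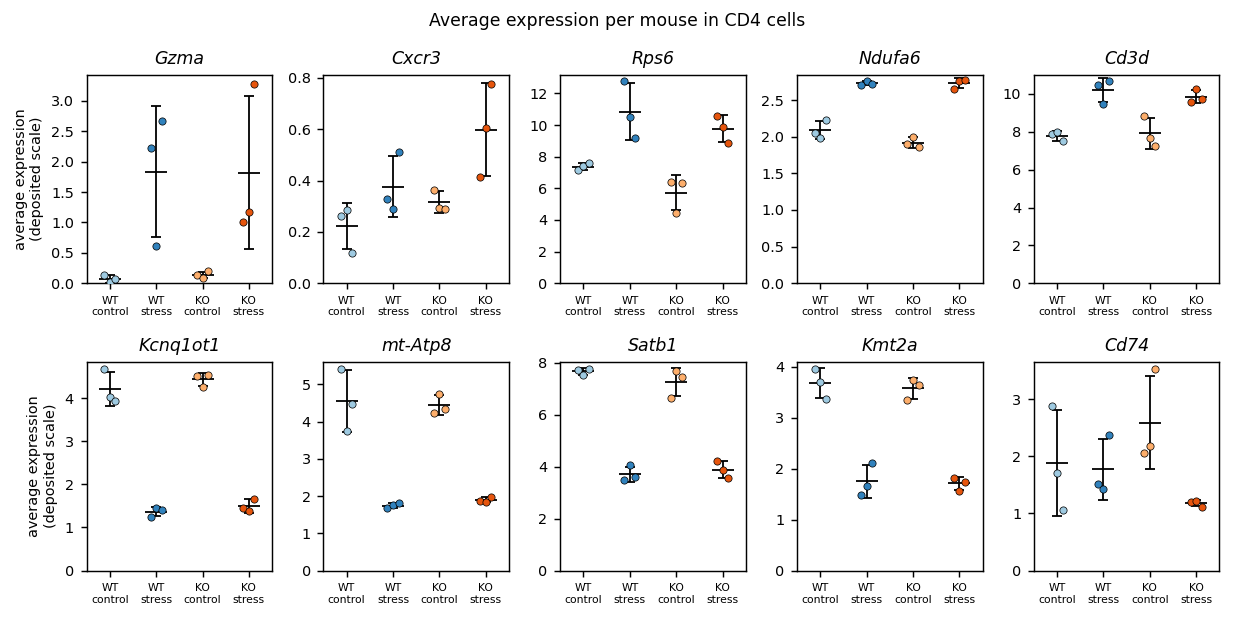
Average expression per mouse on the deposited scale (y axis, starting at 0) for 10 genes in CD4 cells of the 4 groups (x axis), with each mouse as a point and the mean ± SD (n = 3) as bars. Gzma, Cxcr3, Rps6, Ndufa6 and Cd3d were higher and Kcnq1ot1, mt-Atp8, Satb1, Kmt2a and Cd74 lower in stressed than in unstressed knockout mice.

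Pseudogene entries followed the ribosomal genes. Of 94 listed pseudogenes, 58 were called higher and 2 lower, with a median log2 change of 0.40. Among the 29 named after a ribosomal protein gene, 21 were called higher and none lower. The counting cannot be shown to separate these copies from their parent genes, so both the pseudogene values and those of the ribosomal genes with close copies are uncertain in their assignment.

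The rest of the translation machinery was mixed. Of 30 listed translation factors, 12 rose and 4 fell, with a median log2 change of 0.17. Eef1b2, an elongation factor subunit that reloads eEF1A with GTP, was 15.5, 13.7 and 14.7 in unstressed and 19.5, 19.3 and 18.2 in stressed knockout mice (0.37 ± 0.06, limma adjusted p = 0.00021). The 4 that fell were Eif3a (-0.67), a scaffold subunit of the eIF3 initiation complex, the poly(A)-binding protein gene Pabpc1 (-0.48), Eif4g2 (-0.43) and Eef2 (-0.20). Eif3a was 3.74, 3.61 and 3.51 without and 2.13, 2.27 and 2.30 with stress, while its smaller partners Eif3e, Eif3f, Eif3g, Eif3h, Eif3i and Eif3k rose by 0.29 to 0.40. Subunits of 1 complex thus moved in opposite directions.

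Mitochondrial genes split by the genome that carries them. Of 71 listed nuclear genes of oxidative phosphorylation, 35 rose and none fell, with a median log2 change of 0.26. Ndufa6 of complex I was 1.90, 2.00 and 1.85 in unstressed and 2.65, 2.76 and 2.78 in stressed knockout mice, and Atp5h of ATP synthase was 5.03, 4.90 and 4.47 against 6.17, 6.43 and 6.20. Neither gene overlapped between groups, and the changes were 0.49 ± 0.08 (limma adjusted p = 9.3e-05) and 0.38 ± 0.07 (0.00038). Another ATP synthase subunit gene, Atp5e, rose by 0.45 ± 0.08. Without unstressed knockout mouse 3 the count of nuclear genes called higher was 19, and with ribosomal and mitochondrial genes left out and the rest rescaled it was 22.

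All 8 listed mitochondrially encoded genes fell, with a median of -0.87. The ATP synthase subunit mt-Atp8 was 4.23, 4.75 and 4.34 without and 1.87, 1.85 and 1.98 with stress (-1.18 ± 0.08, limma adjusted p = 1.5e-07). The cytochrome oxidase subunit mt-Co1 was 12.1, 12.0 and 12.7 against 6.04, 6.02 and 5.78 (-1.03 ± 0.06), and mt-Nd5 of complex I changed by -1.01 ± 0.07. The ribosomal RNA mt-Rnr2 showed the smallest fall, -0.18, and mt-Nd6 the largest, -1.36. Summed over the 12 mitochondrial genes of any CD4 table the level was 467, 482 and 515 against 418, 430 and 410, so the sum was lower in every stressed mouse (exact permutation test, two-sided p = 0.1, the smallest that 3 against 3 allows).

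Nuclear genes of the mitochondrial ribosome were called at about the background rate. Of 53 listed, 10 rose and none fell, near the 19.5% called higher over all listed genes, and their median of 0.16 was near the 0.13 over all. The count ranged from 4 to 13 when 1 mouse was left out. It was 4 without unstressed mouse 2 or 3 or stressed mouse 1, and 5 without stressed mouse 2, and under the rescaling it was 4. Mrps21 was 0.967, 0.991 and 0.813 in unstressed and 1.32, 1.31 and 1.41 in stressed knockout mice (0.50 ± 0.10, limma adjusted p = 0.00071), and Mrpl52 rose by 0.40. Mrpl35 rose by 0.48, a call that was lost in 2 alternative analyses.

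Some genes of protein quality control rose. Over all listed genes 19.5% were called higher, and the median log2 change was 0.13. Of 41 listed genes of the proteasome and MHC class I pathway, 12 rose and none fell (median 0.17). Psmb1, a core subunit, was 3.00, 2.68 and 2.65 in unstressed and 3.39, 3.50 and 3.55 in stressed knockout mice (0.32 ± 0.08, limma adjusted p = 0.0038), and Psmb10, a subunit of the immunoproteasome, was 1.57, 1.25 and 1.36 against 1.777, 1.668 and 2.103 (0.38 ± 0.11). The pathway count fell to 2 without unstressed mouse 2 or 3, 3 without stressed mouse 1, 5 without stressed mouse 2 and 7 without stressed mouse 3. It was 5 under the rescaling, and the calls of Psmb10 and of Psma2 (0.32) were each lost in some of these. Among the class I genes, H2-K1 (0.10), H2-D1 (0.15) and B2m (-0.15) were not called. Of 18 chaperone genes, 6 rose and 1 fell, the fall being Dnajc5 (-0.89), a co-chaperone of secretory vesicles. The constitutive chaperone Hspa8 was 4.86, 4.10 and 3.69 against 6.90, 5.25 and 6.19 (0.53 ± 0.11, limma adjusted p = 0.00086), and Dnajc15 rose by 0.47. Of 24 antioxidant genes, 5 rose and none fell, a share near the 19.5% called higher over all listed genes. The lipid peroxide-reducing selenoprotein Gpx4 was 0.797, 0.561 and 0.666 against 1.08, 1.09 and 0.959 (0.57 ± 0.12), and the selenoproteins Selenow and Selenoh rose by 0.48 and 0.47. The antioxidant count was 9 without unstressed mouse 1 and 3 without unstressed mouse 2.

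Genes of the naive, quiescent state fell, with 1 exception. Of 7 listed, 6 fell and 1 rose (median -0.58). Satb1, a chromatin organiser of T cells (chr17:51736187-51833290), was 6.64, 7.69 and 7.44 in unstressed and 4.23, 3.86 and 3.56 in stressed knockout mice (-0.89 ± 0.08, limma adjusted p = 1.5e-06). Foxp1, which restrains activation, was 5.18, 5.57 and 6.01 against 3.79, 3.58 and 2.94 (-0.69 ± 0.09), and Foxo1, which maintains homing receptors, was 2.05, 2.17 and 2.03 against 1.27, 1.35 and 1.20 (-0.67 ± 0.09). Stressed mice were below all controls for each of these. The transcription factors Lef1 (-0.48) and Tcf7 (-0.46) also fell. The exception, Klf2, a quiescence factor that drives S1pr1, was 6.62, 7.32 and 6.18 without and 7.719, 8.287 and 7.998 with stress (0.25 ± 0.07, limma adjusted p = 0.012). The rise of Klf2 was lost without unstressed mouse 3 or stressed mouse 2 and under the rescaling. Bcl11b, which maintains T cell identity, fell by 0.56.

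Genes of T cell receptor signalling fell as well. Of 9 listed, 6 fell and none rose (median -0.72): Malt1 (-0.99), Themis (-0.82), Prkcq (-0.74), Rasgrp1 (-0.73), Ptprc (-0.72) and Lcp2 (-0.69). Ptprc, which encodes the phosphatase CD45, was 16.7, 16.7 and 17.1 in unstressed and 9.44, 10.5 and 10.7 in stressed knockout mice (limma adjusted p = 1.4e-06). The adaptor gene Lat changed by 0.17 and was not called.

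Of 6 listed genes of cytokine receptors, Janus kinases and STATs, 4 fell and none rose. Il2ra, the high-affinity interleukin 2 receptor chain (chr2:11642807-11693193), was 0.812, 0.860 and 0.630 in unstressed and 0.274, 0.325 and 0.170 in stressed knockout mice. The groups did not overlap, and the change was -1.30 ± 0.16 (limma adjusted p = 1.1e-05). Il6ra fell by 0.70, Tgfbr2 by 0.65 and the kinase gene Jak1 by 0.31. The ligand gene Il2, at 0.0391, 0.0203 and 0.0224 against 0.0467, 0.0668 and 0.0705, was called higher (0.34 ± 0.13, limma adjusted p = 0.043), close to the threshold. All these Il2 values are below the 0.1 added before the log, so the size of the change depends on it. In wild-type mice the Il2 change was -0.43. Il2ra is also 1 of 2 listed regulatory T cell genes. Over the 8 regulatory T cell genes of any CD4 table the summed level was 11.5, 7.22 and 7.38 without and 5.33, 6.54 and 6.83 with stress (exact permutation test, two-sided p = 0.1, the smallest that 3 against 3 allows).

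Homing genes included 3 falls and 1 rise. Of 6 listed, the falls included the integrin genes Itga4 (-0.81) and Itgal (-0.66). Cxcr3, the receptor for interferon-induced chemokines (chrX:101731535-101734269), was 0.365, 0.294 and 0.288 in unstressed and 0.415, 0.605 and 0.776 in stressed knockout mice (0.72 ± 0.17, limma adjusted p = 0.0025). Cxcr4 was 0.0897, 0.239 and 0.189 against 0.481, 0.207 and 0.166, with overlap, and was not called (0.45 ± 0.25).

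Glucocorticoid response genes, which social stress can raise through adrenal corticosterone, were not called in either direction. The 3 listed members were Cxcr4, Tsc22d3 (0.08 ± 0.20) and Ddit4 (-0.02 ± 0.19). Tsc22d3, which encodes GILZ, was 0.913, 1.35 and 1.07 without and 1.76, 0.824 and 1.08 with stress. In both Tsc22d3 and Cxcr4, stressed mouse 1 was the highest of the 6, and the other stressed mice lay within or near the control range. Of 6 immediate early genes, only the RNA-decay factors Zfp36l1 (-0.81) and Zfp36l2 (-0.48) were called, both lower. In some alternative analyses, leaving out unstressed mouse 1 or stressed mouse 3 among them, Dusp2 and Jund were called higher.

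The largest rise among all listed genes was Gzma, the granzyme A protease of cytotoxic cells (chr13:113093825-113100981, minus strand). It was 0.140, 0.0914 and 0.194 in unstressed and 1.02, 1.18 and 3.27 in stressed knockout mice. Every stressed mouse was above every control, stressed mouse 3 had the highest value, and the log2 change was 2.83 ± 0.30 (limma adjusted p = 3.6e-06). Of 14 listed effector and memory genes 4 were called higher and 1 lower, with a median of 0.21. Over all listed genes 19.5% were called higher and 20% lower. Besides Gzma and Cxcr3, the memory marker Ly6c2 (0.76) and the inhibitory lectin gene Klrd1 (0.53) were called higher. In both, stressed and unstressed knockout mice overlapped. Itga4 fell. Without stressed mouse 3, or with all 4 groups in the fit, the count of rises was 2. The others, Ifng (0.21), Lgals1 (0.14), S100a10 (0.10) and S100a11 (0.04) among them, were not called.

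Some effector genes that were not called had uneven levels among the unstressed knockout mice. Lgals1 was 4.74, 3.88 and 1.57 in unstressed and 3.46, 2.86 and 3.95 in stressed knockout mice, and S100a10 was 9.66, 8.14 and 4.93 against 6.75, 7.15 and 9.91. In both genes unstressed mouse 3 was the lowest of the 6. Summed over the 33 effector genes of any CD4 table, the level was 70.5, 58.4 and 41.3 without and 55.3, 58.5 and 97.9 with stress, so the groups overlapped (exact permutation test, two-sided p = 0.5). In unstressed wild-type mice the same sum was 33.0, 36.7 and 29.1. For the 7 S100 genes of any CD4 table the sum was 24.3, 21.3 and 10.3 against 15.6, 17.7 and 23.2 (exact p = 1). Of the 4 listed S100 genes only S100a13 was called (0.46 ± 0.13, limma adjusted p = 0.0094), a call that did not hold without stressed mouse 3.

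Markers of natural killer and CD8 cells were read beside these rises, since both cell types express Gzma and Klrd1. Of the 14 natural killer markers 5 are in any CD4 table: Ccl5, Gzma, Klrd1, Nkg7 and Prf1. All 5 are also on the effector and memory list, so their sum holds Gzma and Klrd1 themselves and is no separate reading. This sum was 7.84, 4.42 and 7.91 in unstressed and 14.2, 15.4 and 40.8 in stressed knockout mice, without overlap. Ccl5, a chemokine gene that makes up most of this sum and is not among the 1898 genes, was 5.54, 2.87 and 5.89 against 10.8, 12.2 and 34.3. Not every marker was separated: Nkg7 was 1.65, 0.919 and 1.13 against 1.66, 1.38 and 2.26, which overlap, and Klrd1 overlapped as well. The CD8 markers Cd8a and Cd8b1 summed to 0.561, 0.532 and 0.611 against 0.433, 0.818 and 0.982, which overlap. Without stressed mouse 1, the mouse with the low sum, Cd8b1 was called higher. The part of such cells in the effector rises was not tested, and in averages of this kind more cells of a type and more RNA per cell cannot be told apart.

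Interferon response genes fell in part. Of 14 listed, 8 fell and none rose, with a median of -0.34. Gvin3, an interferon-inducible GTPase, was 3.56, 3.38 and 3.43 in unstressed and 1.49, 1.52 and 1.44 in stressed knockout mice (-1.17 ± 0.08, limma adjusted p = 1.5e-07). Slfn8, a Schlafen family gene, was 1.65, 1.20 and 1.17 against 0.550, 0.539 and 0.535 (-1.15 ± 0.12), and the guanylate-binding protein gene Gbp7 fell by 0.98. Other interferon-inducible genes were not called: Ifi27l2a was 18.4, 10.3 and 6.68 against 14.0, 10.9 and 12.5 and Bst2 was 2.06, 1.18 and 0.855 against 2.04, 1.13 and 1.74, both with overlap. Unstressed mouse 1 had the highest Ifi27l2a and Bst2 of the 6. Without that mouse Bst2, Ifi27l2a and Ifi35 were called higher, 3 rises among the 14. Over the 41 interferon genes of any CD4 table the sum of unstressed mouse 1 was 106, against 79.3 and 70.7 in the other unstressed and 74.4, 62.8 and 67.0 in the stressed knockout mice.

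Chromatin regulators fell nearly throughout. Of 26 listed modifiers and remodellers, 24 fell and none rose (median -0.80). Kmt2a, a histone H3 lysine methyltransferase, was 3.35, 3.75 and 3.64 in unstressed and 1.82, 1.56 and 1.75 in stressed knockout mice (-1.02 ± 0.09, limma adjusted p = 8.7e-07). Tet3, which oxidises methylcytosine, was 1.70, 1.91 and 1.93 against 0.769, 0.903 and 0.794 (-1.08 ± 0.10), and Ash1l, another methyltransferase, fell by 0.98. For all 3 genes the stressed mice lay below the controls. Of 17 zinc finger factors 9 fell and none rose, with Zbtb20 (-1.06), Zfp292 (-0.94) and Zfp638 (-0.78) at the smallest p.

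Splicing genes went both ways. Of 40 listed, 21 fell and 5 rose (median -0.28). The splicing factor Prpf38b was 3.19, 3.13 and 2.83 in unstressed and 1.31, 1.20 and 1.41 in stressed knockout mice, without overlap (-1.16 ± 0.09, limma adjusted p = 4.0e-07). The speckle scaffold Srrm2 fell by 0.75. The 5 that rose, Snrpd2 (0.54), Snrpert (0.45), Snrpb (0.40), Snrpe (0.37) and Snrpg (0.36), all carry names of the small ring proteins at the core of spliceosomal particles or of a copy of one.

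Nuclear noncoding RNAs and actin genes also included changes of both signs. The imprinted antisense RNA Kcnq1ot1 (chr7:143203458-143296549, minus strand) was 4.52, 4.26 and 4.54 in unstressed and 1.45, 1.37 and 1.67 in stressed knockout mice, the largest fall of a well-measured gene (-1.51 ± 0.09, limma adjusted p = 9.9e-08). Neat1, the scaffold RNA of paraspeckles, was 1.80, 1.81 and 1.72 against 0.741, 0.883 and 0.942 (-0.98 ± 0.10), and Malat1 of nuclear speckles was 212, 214 and 218 against 161, 152 and 150 (-0.48 ± 0.05). Gas5, a spliced host gene of small nucleolar RNAs, rose by 0.49. Of 16 actin cytoskeleton genes 5 fell, genes of large proteins, Dock10 (-1.08), Macf1 (-1.02), Myh9 (-0.88), Dock2 (-0.70) and Tln1 (-0.55), and 5 rose, Tmsb10 (0.63), Myl12b (0.38), Myl6 (0.29), Arpc3 (0.22) and Coro1a (0.19). The count of actin rises was 3 under the rescaling and without unstressed mouse 2 or 3 or stressed mouse 1 or 2. Smg1 (-1.15), a kinase of nonsense-mediated decay, Itpkb (-1.07), an inositol kinase of T cell signalling, and Ift80 (-1.06), a ciliary transport gene, complete the 10 largest falls.

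**Figure D3:**
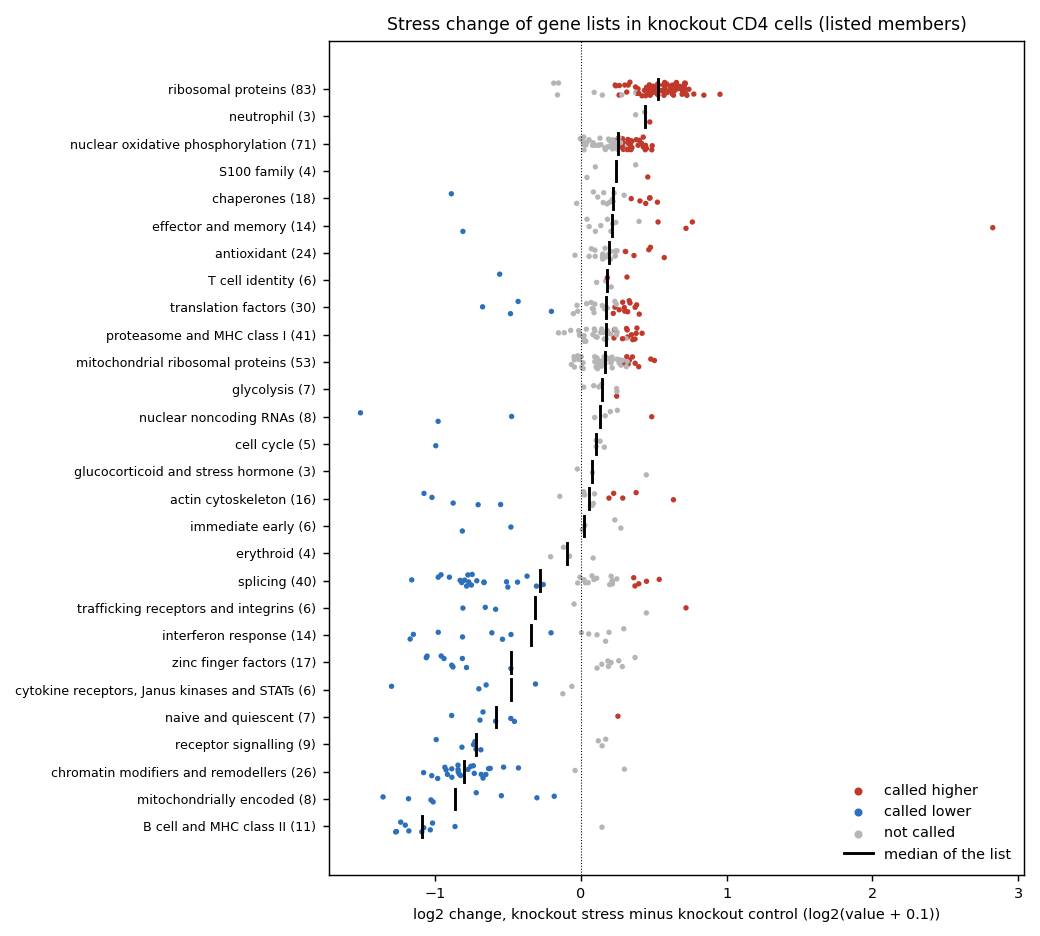
Log2 change between stressed and unstressed knockout mice (x axis) of each listed gene in 28 gene lists (y axis, number of listed genes in brackets), coloured by call, with the list median as a black bar. Medians run from -1.09 for the B cell and MHC class II list to 0.53 for ribosomal proteins.

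The direction of change went with transcript length. Among 1573 listed protein-coding genes outside the ribosomal and mitochondrially encoded lists, the longest annotated transcript (GENCODE M21) had a median of 1251 bases in called higher, 1791 in not called and 6404 in called lower genes. Of 241 genes up to 1000 bases, 73 were called higher and 0 lower. Of 177 genes between 4000 and 6000 bases, 7 were higher and 85 lower. Of 118 genes above 8000 bases, 0 were higher and 112 lower (94.9%). The median longest transcript was 9475 bases in the chromatin list, 5703 in the naive list and 3970 in the receptor signalling list, against 1005 in the nuclear oxidative phosphorylation list and 1806 in the B cell and MHC class II list. The part of length in the changes of these lists was not tested.

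Few listed genes went against length. Above 8000 bases the 6 that were not called lower were Agpat5, Ebpl, Fam53a, Glo1, Itga1 and Tmem167. Up to 2000 bases only 4 fell: Atp1b3 (-0.36), a sodium pump subunit, and 3 antigen presentation genes, Cd74 (-1.03), H2-Ab1 (-1.09) and H2-Eb1 (-0.86). The mitochondrially encoded genes, short and outside that count, also fell. By gene type, 33 of 34 genes of the GENCODE class TEC, provisional transcripts awaiting experimental proof, fell (median -1.15), as did 3 of 3 immunoglobulin constant genes.

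**Figure D4:**
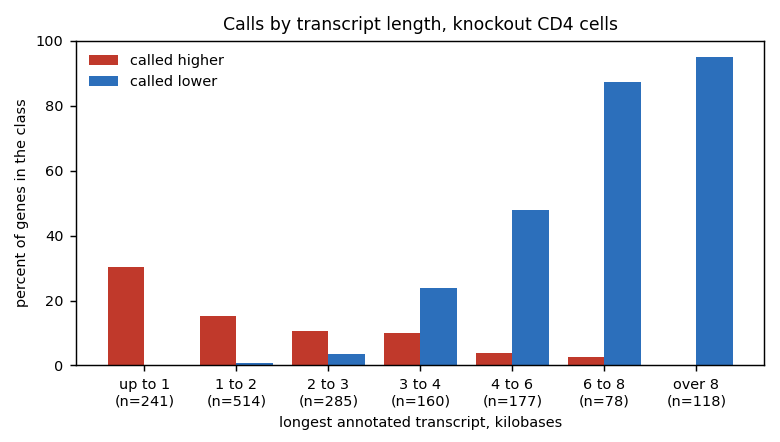
Percent of genes called higher and lower (y axis) in 7 classes of longest annotated transcript length (x axis, kilobases), for 1573 protein-coding genes. The share called lower rises from 0 in genes up to 1000 bases to 94.9% above 8000 bases.

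With 0.1 added before the log, B cell and MHC class II genes had the lowest median of the lists. Of 11 listed, 10 fell and none rose (median -1.09). This rank depends on the added value. With 1 added the median was -0.31, against -0.62 for the mitochondrially encoded list, and with 0.01 added it was -1.38. These genes mark B cells and other antigen-presenting cells and are low in mouse CD4 cells. Cd74, the class II invariant chain, was 2.05, 2.18 and 3.52 in unstressed and 1.20, 1.21 and 1.12 in stressed knockout mice (-1.03 ± 0.15, limma adjusted p = 4.0e-05). Igkc, the immunoglobulin kappa constant gene, was 3.11, 2.65 and 3.31 against 1.22, 1.32 and 1.84 (-1.02 ± 0.13), and the B cell adaptor Bank1 was 0.182, 0.213 and 0.310 against 0.0156, 0.0304 and 0.0711 (-1.27 ± 0.17). No stressed mouse reached a control in any of the 3. The class II genes H2-Aa, H2-Ab1 and H2-Eb1 fell by 1.20, 1.09 and 0.86, and Ciita, their transcriptional activator, by 0.89. H2-DMa, the peptide-exchange chain, was the 1 member not called (0.14).

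Class II promoters carry a Y box bound by NF-Y as part of a conserved module. A search on both strands for CTGATTGG in 300 bases (250 before and 50 after the RefSeq GRCm38.p6 start) found it in 2 of the 6 list members with a start, against 4.32% of all starts. Both are shown with the match in capitals, H2-Aa from chr17:34287834-34287933 (minus strand) and H2-Eb1 from chr17:34305757-34305856 (plus).
H2-Aa: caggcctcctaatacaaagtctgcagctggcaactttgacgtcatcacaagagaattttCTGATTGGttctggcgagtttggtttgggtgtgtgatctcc
H2-Eb1: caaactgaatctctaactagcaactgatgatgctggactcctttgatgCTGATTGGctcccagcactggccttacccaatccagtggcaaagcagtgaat
The 2 genes with a match fell by 1.20 and 0.86, within the range of the list.

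The sum over the 12 B cell and class II genes of any CD4 table was 8.49, 8.72 and 12.9 in unstressed and 3.89, 4.47 and 4.84 in stressed knockout mice (exact permutation test, two-sided p = 0.1, the smallest that 3 against 3 allows). In wild-type mice it was 10.2, 6.02 and 4.07 against 4.97, 5.11 and 8.02 (exact p = 0.7). Of 32 B cell and class II markers these 12 are in any CD4 table, and none of them is at 0 in all mice. The 4 haemoglobin genes summed to 5.52, 4.06 and 0.627 against 5.08, 1.74 and 1.70, and 0 of 4 were called. Without unstressed mouse 3, the mouse with the low sum, 3 of the 4 were called lower. Of 3 listed neutrophil genes only Lcn2 was called, at 0.0569, 0.0515 and 0.00382 against 0.125, 0.0846 and 0.0588 (0.47 ± 0.17, limma adjusted p = 0.041), and its call was lost in 9 alternative analyses. The 7 monocyte, macrophage and dendritic markers of any CD4 table, none of them among the 1898 genes, summed to 3.39, 3.03 and 2.50 against 2.43, 2.85 and 2.44. No platelet marker is in a CD4 table. The part of other cells in the CD4 averages was not tested.

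Wild-type CD4 cells were compared to ask whether stress acted differently without S100a9. Of the 1898 genes, 1471 were also listed by the authors for wild-type stress and 427 were not. The stress by genotype interaction, fitted by limma over all 2999 CD4 genes in 12 mice, called 0 of the 1898 (0%). At an unadjusted p under 0.05 there were 110 (5.80%), and the lowest adjusted p was 0.208. Over all 2999 CD4 genes 284 had an unadjusted p under 0.05, and the lowest limma adjusted p was 0.069. That value was reached by the targeted gene S100a9, which is not among the 1898 genes (interaction -0.99 ± 0.17). Its averages lie near or below the 0.1 added before the log. Among the 1898 genes the median SE of the interaction was 0.16 on the log2 scale. Far larger differences, such as -1.10 ± 0.35 for Igkc, did not pass, so 0 calls do not show that the genotypes responded alike. Of the 370 genes called higher in knockout mice, 362 had a positive change in wild-type mice, and of the 380 called lower, 379 had a negative one. The median changes were 0.40 and 0.40 for the higher genes and -0.82 and -0.77 for the lower genes, knockout first.

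**Figure D5:**
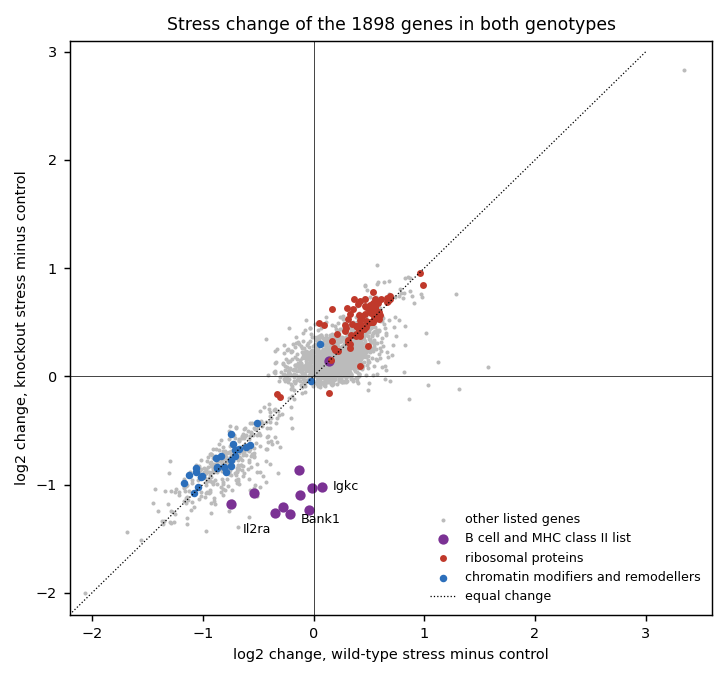
Log2 stress change in knockout (y axis) against wild-type mice (x axis) for the 1898 genes, with 3 gene lists coloured and the line of equal change dotted. Ribosomal and chromatin genes lie along the line, and 10 of the 11 B cell and MHC class II genes, which the authors listed for the knockout and not for the wild type, lie below it.

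The 427 genes listed for the knockout and not for the wild type held smaller wild-type changes. Of these, 30 were called higher and 86 lower in knockout mice, and the lower ones had a median of -0.77 in knockout and -0.49 in wild-type mice. In 52 of the 427 (12.2%) the unadjusted interaction p was under 0.05, and 0 were called. Since a gene entered this group by being listed for 1 genotype and not for the other, neither that share nor the smaller wild-type changes have independent weight. Il2ra was 0.537, 0.411 and 0.466 in unstressed and 0.294, 0.253 and 0.291 in stressed wild-type mice, a change of -0.59, and the interaction was -0.71 ± 0.22 (limma adjusted p = 0.39). All unstressed knockout mice were above all unstressed wild-type mice in Il2ra.

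The smallest interaction p values among the members belonged to Bri3, Esd, Gm5915, Bank1 and Pou2f2, none of which passed. Bri3, a membrane protein of lysosomes, was 0.877, 0.938 and 0.942 in unstressed and 0.853, 0.933 and 0.922 in stressed knockout mice, and 0.671, 0.692 and 0.527 against 1.15, 0.926 and 1.04 in wild-type mice. Its knockout controls sat above the wild-type controls, and the interaction was -0.67 ± 0.15 (limma adjusted p = 0.21). Esd, a formylglutathione hydrolase, had an interaction of -0.54 ± 0.13 (0.24). Bank1 fell by 1.27 in the knockout and was 0.183, 0.110 and 0.0514 against 0.0672, 0.0741 and 0.0992 in wild-type mice, with an interaction of -1.06 ± 0.29 (0.32). The size of these Bank1 changes depends on the 0.1 added before the log. Pou2f2, a B cell octamer factor also present in T cells, had -0.49 ± 0.14 and the pseudogene Gm5915 0.58 ± 0.15 (both 0.32). In 7 of the 11 listed B cell and class II genes the unadjusted interaction p was under 0.05, Cd74 with -1.02 ± 0.38 and Igkc with -1.10 ± 0.35, and 0 were called. The 10 called members are all among the 427 genes listed for the knockout and not for the wild type, so these interaction values have no independent weight either.

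Some effector genes were uneven among the knockout controls. For Lgals1 the wild-type values were 1.40, 1.69 and 1.36 without and 4.03, 2.24 and 4.09 with stress, all stressed mice above the controls, while the knockout groups overlapped. The interaction was -0.99 ± 0.42 and not called (limma adjusted p = 0.47). It was called without unstressed knockout mouse 3, the mouse with the low knockout level (-1.46, limma adjusted p = 0.018). S100a11, at 3.76, 3.13 and 1.89 against 2.26, 3.06 and 3.52 in knockout and 1.54, 1.59 and 1.32 against 3.34, 1.98 and 2.88 in wild-type mice, showed the same arrangement (interaction -0.77 ± 0.31, adjusted p = 0.46). Gzma did not: it was 0.137, 0.0123 and 0.0638 against 2.22, 0.616 and 2.66 in wild-type mice, and the interaction was -0.52 ± 0.64 (adjusted p = 0.76).

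CD8a cells of the same knockout mice offered a comparison within each animal. For the 1585 members with a CD8a value, the stress change in CD8a minus that in CD4 cells was tested on within-mouse log2 differences. None was called (0%) by limma, 76 had an unadjusted p under 0.05, and the lowest adjusted p was 0.71. The median SE was 0.11. The changes in CD8a cells relative to CD4 cells were -0.05 ± 0.09 for Rpl18, 0.04 ± 0.09 for mt-Co1, 0.10 ± 0.10 for Kmt2a and 0.06 ± 0.10 for Satb1. The smallest p values, none passing, were those of Atraid (-0.40 ± 0.09), E030022I16Rik (0.50 ± 0.11), H4c4 (-0.34 ± 0.08), Mrpl41 (0.38 ± 0.09) and Pglyrp1 (0.51 ± 0.12). Without stressed knockout mouse 2, 3 haemoglobin genes were called, Hba-a1 (1.92), Hba-a2 (2.02) and Hbb-bs (2.42), with limma adjusted p of 0.014, 0.0061 and 0.0061.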

How the data were processed

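Spleen cells of 12 mice were processed as 3' single-cell RNA libraries. The submitters' processing notes name Cell Ranger 2.1.1 and mm10. The deposited tables give, per mouse, the authors' average expression of each gene in CD4 or CD8a cells, a linear signal without cell or read counts, so depth, cell barcodes and doublets were not analysed here. Per mouse the 2999 CD4 genes summed to between 7367 and 8225. Each sample is 1 mouse, and n is 3 per group.

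Values were taken as log2(value + 0.1), which understates changes of low genes, and tested with limma 3.58.1 (R 4.3.3; mean-variance trend; Benjamini-Hochberg over all 1898 genes, 2999 for the interaction and 2166 for CD8a against CD4). Calls are at an adjusted p under 0.05. A gene was well measured if its mean reached the median of the table. The code was tested on simulated data.

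The members and gene lists were chosen with earlier results of these data known. Named were the S100a8, S100a9 and marker genes, the 10 largest separated rises and falls of well-measured genes, the 3 smallest p of each list, the called members of small lists, and the smallest p of the other comparisons. Correlates of S100a9 and Gzma were left out because the mice fall into stressed and unstressed clusters. Other genes were named after their values were seen, and some genes that the rule picks are not reported here. Gene positions and lengths are from GENCODE M21 (GRCm38), which matched 1846 of the 1898 genes, and 1414 had a RefSeq start. Alternatives changed the pseudocount, the filter on low genes, scaling, weights, the fitted groups, the replicate block and the mice.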

Additional observations from a re-analysis of the deposited data

How the results depend on the processing

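Over 16 settings that fit all 1898 genes, 208 genes were called higher and 377 lower in every setting. Leaving out 1 mouse at a time gave 625 to 810 called genes, 243 to 429 higher and 377 to 382 lower, with the lowest count of higher genes without unstressed knockout mouse 3. With ribosomal and mitochondrial genes and ribosomal-named pseudogenes left out and the rest rescaled, 166 of 1770 genes were higher and 372 lower. With all genes scaled on the others, an alternative added after seeing the data, the counts were 280 and 382. The replicate block gave 789 calls, 409 higher and 380 lower, and 0 interaction calls, but mice with the same number did not deviate together (correlations 0.10, -0.09 and 0.07), so the numbers pair no mice. S100a8 was called with the block (limma adjusted p = 0.034) and without unstressed knockout mouse 1 (0.020). The other comparisons had 0 calls, with 0 to 1 in the genotype comparison and 0 to 3 in the CD8a comparison when a mouse was left out. The uncalled Bri3 change ran from -0.054 to 0.013 with 1 mouse left out, positive only without stressed knockout mouse 1. The B cell and class II count fell to 5 when the lowest 25% of genes were left out, since the other members were then not tested. Rises of 1 to 3 members appeared in some settings in the zinc finger, cell cycle, receptor signalling and chromatin lists, which otherwise had 0. Psma2, Klrd1, Psmb10 and Mrpl35 lost their call in 2 to 5 settings and S100a13 in 1; for these and the changes above, unless stated, the cause was not tested. Without cell numbers or read counts, precision rests on 3 mice a group.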
